A study of Mus musculus with 31 samples.

Results

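Long noncoding RNAs grouped here as nuclear, Malat1, Neat1, Miat, Tug1, Rmst and Gas5, were examined in embryonic eyes of mice that lack Ftx. Ftx is itself a long noncoding RNA gene on the X chromosome close to Xist. Members were the array probes whose listed gene name is one of these 6 names, control spots left out, and each probe was read apart from the others. The rule found 8 of 55681 different probes, printed as 17 of 59305 spots: 1 for Malat1, 1 for Neat1, 3 for Tug1 and 3 for Gas5, so that 4 of the 6 genes were found among 34832 names on the array. Miat and Rmst have 0 probes under these names, although Rmst is on the array under its older symbol Gm3515. All 8 probes were well above background on all 31 arrays and none was saturated on any array. Signals are given in arbitrary units after normalization, and levels of different probes do not rank their RNAs, since probes differ in how brightly they bind.

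The study asked how gene expression in the eye differs when Ftx is absent, in females and in males. Eyes were taken at embryonic day 13.5 (E13.5), the layer of pigmented epithelium was removed surgically, and total RNA of each eye was amplified and labelled with 1 dye. All mice were C57BL/6N, and the targeted Ftx allele also abolishes expression of the microRNAs that the Ftx transcript hosts, so an effect of losing Ftx RNA and one of losing these microRNAs cannot be told apart. The 4 groups were wild-type (WT) females with 3 eyes, WT males with 3 eyes, hemizygous Ftx-/Y males with 3 eyes and homozygous Ftx-/- females with 11 eyes, all mutant eyes of normal appearance. The WT female eyes are numbered 1, 2 and 4, and number 3 was not analysed here. The files used here hold 2 arrays of each Ftx-/- eye, which were averaged, and 1 array of each other eye. The study's methods speak of biologically independent samples in general, but the labels do not tie eyes to embryos, so p-values measure the spread between these eyes, which may in part be technical. Of 2 probes for Ftx, listed under its older symbol B230206F22Rik, the brighter in WT eyes, A_55_P2175002, gave 101 ± 44.9 (SD, n = 3) in WT females, 106 ± 4.46 (n = 3) in WT males, 16.5 ± 2.94 (n = 3) in Ftx-/Y males and 21.8 ± 11 (n = 11) in Ftx-/- females and was well above background on 0 of 3 Ftx-/Y and 9 of 22 Ftx-/- arrays. The other, A_55_P2175007, cleared the background in 2 of the WT females but in 0 of the WT males. Slide 1 carried all 6 WT eyes with Ftx-/Y eye 1, while slide 2 carried Ftx-/Y eyes 2 and 3 with Ftx-/- eyes numbered 1 to 3. Slide 3 held Ftx-/- eyes numbered 4 to 7, and slide 4, the last, held those numbered 8 to 11. No slide holds both WT and Ftx-/- eyes, so in females genotype and slide cannot be told apart except through the Ftx-/Y males. The slides were scanned on 2 days, which WT and Ftx-/- females did not share, so the same holds for scan. Fewer cells of a type in an eye and less RNA per cell cannot be told apart either.

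Malat1 and Neat1 are neighbouring genes whose RNAs stay in the nucleus. Malat1 collects in nuclear speckles, stores of splicing factors, while Neat1 is the scaffold without which paraspeckles do not form. Tug1 was first described as a taurine-upregulated RNA of the developing retina, where it takes part in photoreceptor formation, and Miat is also known as a retinal noncoding RNA. Rmst binds the transcription factor Sox2 in neural cells. Gas5 carries small nucleolar RNAs (snoRNAs) in its introns, its spliced RNA is degraded by nonsense-mediated decay, and the RNA can act as a decoy for the glucocorticoid receptor.

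The probe sequences follow because the values of one gene differed by probe. They are 60 bases long and are given 5′ to 3′ as designed. Capitals mark the bases that another probe on the array shares by position, and such probes do not measure independently. The positions are those in the array's own annotation, on mouse build mm9. Exons and introns of that build were not used here. The Malat1 probe, A_55_P2021187, lies on the minus strand at chr19:5795713-5795772, 24 bases from the 3′ end of the Malat1 interval, and the probe A_30_P01019221, listed as NEAT2, holds all 60 of its bases. The Neat1 probe, A_51_P234692, lies on the minus strand at chr19:5842564-5842623, 258 bases from the 3′ end. It shares 30 bases with each of a pair of probes listed as NEAT1.
Malat1 A_55_P2021187: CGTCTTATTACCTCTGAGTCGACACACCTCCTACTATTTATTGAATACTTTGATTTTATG
Neat1 A_51_P234692: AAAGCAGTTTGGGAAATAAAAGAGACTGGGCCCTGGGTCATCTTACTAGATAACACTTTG

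The 3 Tug1 probes lie on the minus strand at chr11:3540471-3540530 (A_51_P119401), chr11:3542143-3542202 (A_55_P2123716) and chr11:3544194-3544253 (A_52_P599162), which is 675, 2347 and 4398 bases from the 3′ end of the Tug1 interval. The array's annotation assigns the first and the second to transcript variant a and the third to variant b. The first is printed 10 times on each array. Of its bases, 38 are shared with A_30_P01026392 and 32 with A_30_P01017489, a probe listed as TUG1, which is printed under it.
Tug1 A_51_P119401: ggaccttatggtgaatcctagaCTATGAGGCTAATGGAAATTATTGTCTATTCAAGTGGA
TUG1 A_30_P01017489: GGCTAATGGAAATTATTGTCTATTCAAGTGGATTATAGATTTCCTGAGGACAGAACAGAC
Tug1 A_55_P2123716: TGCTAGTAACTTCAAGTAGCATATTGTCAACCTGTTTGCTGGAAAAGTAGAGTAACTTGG
Tug1 A_52_P599162: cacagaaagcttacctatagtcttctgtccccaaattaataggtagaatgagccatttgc

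The 3 Gas5 probes lie on the plus strand at chr1:162966369-162966428 (A_51_P130544), chr1:162967350-162967409 (A_55_P2178378) and chr1:162968608-162968667 (A_66_P134809), which is 4276, 3295 and 2037 bases from the 3′ end of the Gas5 interval. None shares bases with another probe. The third has a GC content of 23.3%.
Gas5 A_51_P130544: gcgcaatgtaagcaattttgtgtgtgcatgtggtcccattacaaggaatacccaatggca
Gas5 A_55_P2178378: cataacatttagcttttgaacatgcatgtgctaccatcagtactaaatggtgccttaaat
Gas5 A_66_P134809: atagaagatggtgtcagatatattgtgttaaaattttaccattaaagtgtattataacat

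In females, 2 of the 7 member probes bright enough to be tested were higher in Ftx-/- than in WT eyes, 1 of Tug1 and 1 of Gas5, and 0 were lower. A probe was tested when its mean signal in WT females was above 500, which left out Neat1 alone, and it was called at an adjusted p under 0.05 by limma over all 14056 tested probes. The background in this comparison was high, with 35.1% of tested probes called, 16.8% higher and 18.3% lower. Of the calls 47.8% were higher, against 93.6% in the deposited signals without normalization, where the median of all tested probes was 0.25. The members' share of calls is near that background and is not a result about the members as a group. The median log2 fold change was 0.36 over the 7 member probes, whose values were all positive, against -0.01 over all tested probes. These 7 read only Malat1, Tug1 and Gas5 and are not independent, and Neat1, left out, gave -0.19. Probes without a member's name gave -0.34 to 0.33 on the Malat1 strand and -0.38 to 0.56 on the Tug1 strand. With slide or scan as a fixed term neither of the 2 calls held, and 3 of the 7, 1 each of Malat1, Tug1 and Gas5, turned negative. In males, where 0.0213% of tested probes were called, 0 member probes were called and 1 had an unadjusted p under 0.05, as 11.7% of tested probes had.

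The Tug1 probe nearest the 3′ end, A_51_P119401, gave signals of 876, 1034 and 1039 in WT female eyes 1, 2 and 4. In the 11 Ftx-/- eyes the lowest signal was 1106, the median 1262 and the highest 1580. Every Ftx-/- eye thus lay above every WT female eye, a separation upward that 10.1% of tested probes showed. WT male eyes gave 1138, 1069 and 1083, and Ftx-/Y male eyes gave 1279, 1509 and 1657, so the males did not overlap either, as was so for 11.2% of tested probes. The group means were 983 ± 92.5 (SD, n = 3) in WT females, 1324 ± 177 (n = 11) in Ftx-/- females, 1097 ± 36.2 (n = 3) in WT males and 1482 ± 191 (n = 3) in Ftx-/Y males. The probe was 1.34-fold higher in Ftx-/- females (log2 fold change 0.42, SE 0.11, 95% interval 0.19 to 0.65, limma adjusted p = 0.00617). With slide as a fixed term it was not called (0.35, limma adjusted p = 0.279). The difference in males had nearly the same size, 0.43 on the log2 scale (SE 0.14, interval 0.14 to 0.71), with an unadjusted p of 0.00576 and a limma adjusted p of 0.277. Between the female and the male change the difference was under 0.01 in size, with an interval from -0.37 to 0.36 and a limma adjusted p of 0.996. Without WT female eye 1, the lowest of its group, the female difference was 0.34 and the limma adjusted p was 0.0615.

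**Figure D1:**
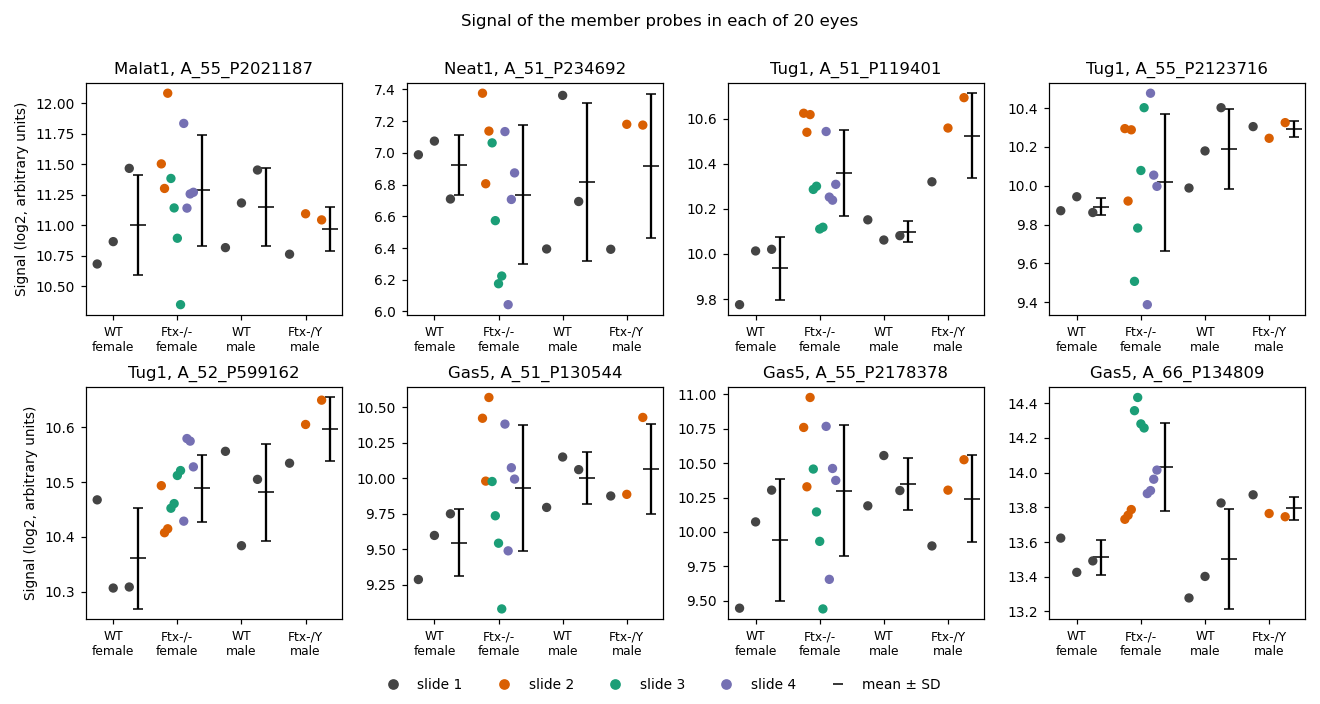
Normalized signal on the log2 scale (vertical axis) of the 8 member probes in each of the 20 eyes, by group on the horizontal axis and coloured by slide, with the group mean and SD as a bar. For Tug1 A_51_P119401 and Gas5 A_66_P134809 all 11 Ftx-/- eyes sit above the 3 WT female eyes, and for the other probes these groups overlap.

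The other Tug1 probes differed less. A_55_P2123716 gave 937, 985 and 931 in WT females and 670 to 1425, with a median of 1064, in Ftx-/- females, a log2 difference of 0.12 (SE 0.18, limma adjusted p = 0.609). The spread between its Ftx-/- eyes was far above that between its WT female eyes, with SDs of 244 and 29.6. A_52_P599162, of variant b, gave 1416, 1266 and 1268 in WT females and 1358 to 1530, with a median of 1442, in Ftx-/- females. All 11 Ftx-/- eyes lay above the WT female mean, and 6 above every WT female eye. The log2 difference of 0.13 (SE 0.054, interval 0.02 to 0.24) missed the threshold with a limma adjusted p of 0.0714. In males the differences of A_55_P2123716 and A_52_P599162 were 0.10 (SE 0.22, limma adjusted p = 0.895) and 0.11 (SE 0.067, limma adjusted p = 0.524). Leaving out 1 eye moved the former to between 0.0007 and 0.21 and the latter to between 0.066 and 0.15.

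The array also holds 11 probes on the Tug1 strand without that name, 5 listed as TUG1 and 6 named by position only, and most lie in the last 700 bases of the interval. Among them 3 were called in females: A_30_P01017489 at 0.56 (SE 0.083), A_30_P01026392 at 0.49 (SE 0.073) and A_30_P01024255 at 0.32 (SE 0.092), with limma adjusted p of 0.000285 and 0.000285 in a fit over all 55681 probes, where 15.8% were called, and of 0.0119 among the tested probes. A_30_P01017489 gave 462 ± 49.0 (n = 3) in WT females and 680 ± 55.3 (n = 11) in Ftx-/- females. These 3 probes lie 647, 653 and 593 bases from the 3′ end, beside A_51_P119401 at 675, and the first and the second share 32 and 38 bases with it, so these are one stretch read several times. A_30_P01024255 shares only 6 bases with A_30_P01017489 and 54 with A_30_P01020952, which was not called (0.27, limma adjusted p = 0.0822). The differences of A_30_P01017489, A_30_P01026392 and A_30_P01024255 in males were 0.28, 0.34 and 0.31, with limma adjusted p of 0.271, 0.142 and 0.325. The other probes nearer to the 3′ end, at 407 to 587 bases, gave female differences from 0.09 to 0.27, none called. At 2345 to 2468 bases the probes gave 0.05, 0.09 and, for A_30_P01026040, -0.38 (SE 0.17, limma adjusted p = 0.0942). None of the Tug1-strand probes was called lower, and the called ones lay between 593 and 675 bases from the 3′ end. With slide as a fixed term none of the 3 further probes stayed called, at 0.39, 0.43 and 0.22 (limma adjusted p of 0.52, 0.375 and 0.501), and A_30_P01026040 stood at -0.08. With slide as a random block A_30_P01024255 gave 0.28 (limma adjusted p = 0.0904).

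Of Gas5, the probe A_66_P134809 gave signals of 12612, 11001 and 11515 in WT female eyes 1, 2 and 4. In Ftx-/- eyes the lowest was 13596, the median 15956 and the highest 22115, all above every WT female eye. WT male eyes gave 9931, 10822 and 14510 and Ftx-/Y eyes gave 14993, 13914 and 13736. WT male eye 3 therefore lay above 2 of 3 Ftx-/Y eyes and inside the range of the Ftx-/- females. The means were 11710 ± 823 (SD, n = 3) in WT females, 16995 ± 3084 (n = 11) in Ftx-/- females, 11754 ± 2428 (n = 3) in WT males and 14214 ± 680 (n = 3) in Ftx-/Y males. The probe was 1.43-fold higher in Ftx-/- females (log2 0.52, SE 0.14, interval 0.22 to 0.81, limma adjusted p = 0.00849). With slide as a fixed term it was not called (0.36, limma adjusted p = 0.321). In males the difference was 0.29 (SE 0.18, limma adjusted p = 0.537), and between 0.18 and 0.45 when 1 eye was left out. The test of the female change against the male change gave 0.23 (interval -0.25 to 0.70, limma adjusted p = 0.692).

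The 2 Gas5 probes nearer the 5′ end were not called. A_51_P130544 gave 625, 775 and 861 in WT females and 542 to 1517, with a median of 1010, in Ftx-/- females, a log2 difference of 0.39 (SE 0.23, limma adjusted p = 0.209). A_55_P2178378 gave 697, 1077 and 1264 in WT females and 695 to 2016, with a median of 1327, in Ftx-/- females, a difference of 0.36 (SE 0.26, limma adjusted p = 0.295), which lay between 0.11 and 0.54 when 1 eye was left out. For each of them 7 of 11 Ftx-/- eyes lay above every WT female eye and 1 below every one. In males their differences were 0.06 (SE 0.29) and -0.11 (SE 0.32). A probe named by position only, A_30_P01026422, lies on the Gas5 strand at 2989 bases from the 3′ end of the interval. It was called at 0.67 in females (SE 0.20, limma adjusted p = 0.0287 over all probes), with 106 ± 13.2 (n = 3) in WT and 172 ± 41.0 (n = 11) in Ftx-/- eyes. With slide as a fixed term it was not called (0.64, SE 0.46, limma adjusted p = 0.698). Its neighbour A_30_P01023313 gave 0.68 with a limma adjusted p of 0.0760.

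Malat1 varied widely between eyes of one group and was not called. Its probe gave 1644, 1866 and 2830 in WT females and 1304 to 4338, with a median of 2471, in Ftx-/- females. Of the Ftx-/- eyes 9 lay above the WT female mean and only 3 above every WT female eye. WT males gave 1804, 2325 and 2804 and Ftx-/Y males gave 1738, 2186 and 2112, all within or just below the WT range. The log2 difference was 0.28 in females (SE 0.25, interval -0.23 to 0.80, limma adjusted p = 0.392) and -0.18 in males (SE 0.31, interval -0.83 to 0.46, limma adjusted p = 0.856). Leaving out 1 eye at a time moved these values to between 0.12 and 0.51 in females and between -0.35 and -0.03 in males. The female minus the male change was 0.47 with an interval of -0.36 to 1.30 (limma adjusted p = 0.631).

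Along Malat1, 4 further probes in the last 144 bases, 3 of them listed as NEAT2, gave 0.28 to 0.33 in females, and the identical probe A_30_P01019221 gave 0.29 beside the 0.28 of the member. At 2567, 2784 and 2872 bases from the 3′ end, the probes A_30_P01020935, A_30_P01021078 and A_30_P01019829 gave -0.24, -0.24 and -0.34, with limma adjusted p of 0.352, 0.245 and 0.112. Near the 5′ end, at 6441 to 6578 bases, 3 probes lay between -0.04 and 0.04. None of these 10 probes was called in either sex.

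**Figure D2:**
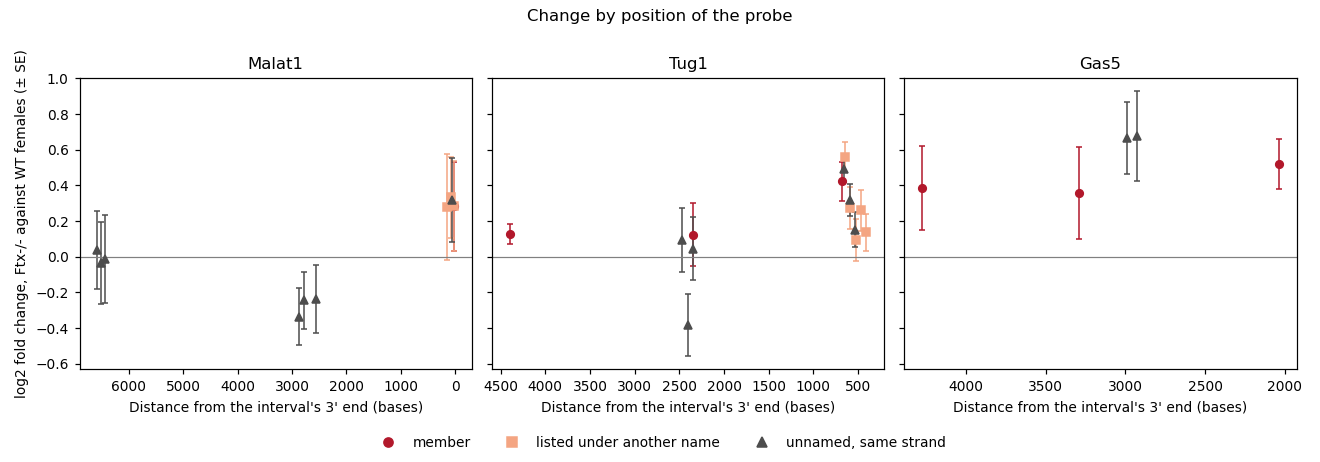
Log2 fold change of Ftx-/- against WT females with its SE (vertical axis) by the distance in bases from the 3′ end of the listed interval (horizontal axis) for probes on the strand of Malat1, Tug1 and Gas5, marked as member, other name or named by position only. The Tug1 probes between 593 and 675 bases stand at 0.32 to 0.56, and the Malat1 probes change sign between the last 144 bases and 2567 bases. For Gas5 the interval is one named by position only, so its end may not be that of the RNA.

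Neat1 was dim. Its probe gave 127, 135 and 105 in WT females, 65.9 to 166 with a median of 112 in Ftx-/- females, 84.1, 165 and 103 in WT males and 84.0, 145 and 145 in Ftx-/Y males. All 4 groups overlapped, and the mean differed between them only from 111 ± 32.4 (SD, n = 11) in Ftx-/- females to 124 ± 35.1 (n = 3) in Ftx-/Y males. In the fit over all probes the log2 difference was -0.19 in females (SE 0.27, limma adjusted p = 0.678) and 0.10 in males (SE 0.34, limma adjusted p = 0.961). Leaving out 1 eye moved the female value to between -0.29 and -0.11. The 5 probes listed as NEAT1, all within 480 bases of the 3′ end and with group means of 32.4 to 114, gave female differences from -0.49 to 1.13 with none called, and the highest of these, A_30_P01021631, had a limma adjusted p of 0.0582. The 3 probes on the Neat1 strand that lie beyond the listed 3′ end, toward the long form of the RNA, were not well above background on any WT array. Of these, A_30_P01019037 was well above background on 7 of 22 Ftx-/- and 1 of 3 Ftx-/Y arrays, with signals of 7.68 to 289 and a median of 22.7 in Ftx-/- eyes, and its female difference was not called (limma adjusted p = 0.208). The listed interval is that of the short form, a stretch that the long form also contains.

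Rmst, read through the probe A_55_P1960108 under the symbol Gm3515, did not differ beyond its spread. The means were 4944 ± 541 (n = 3) in WT females, 5201 ± 799 (n = 11) in Ftx-/- females, 5300 ± 764 (n = 3) in WT males and 4903 ± 571 (n = 3) in Ftx-/Y males. Its log2 differences were 0.06 in females (SE 0.13, limma adjusted p = 0.739) and -0.11 in males (SE 0.17, limma adjusted p = 0.838). Miat was not analysed here.

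**Figure D3:**
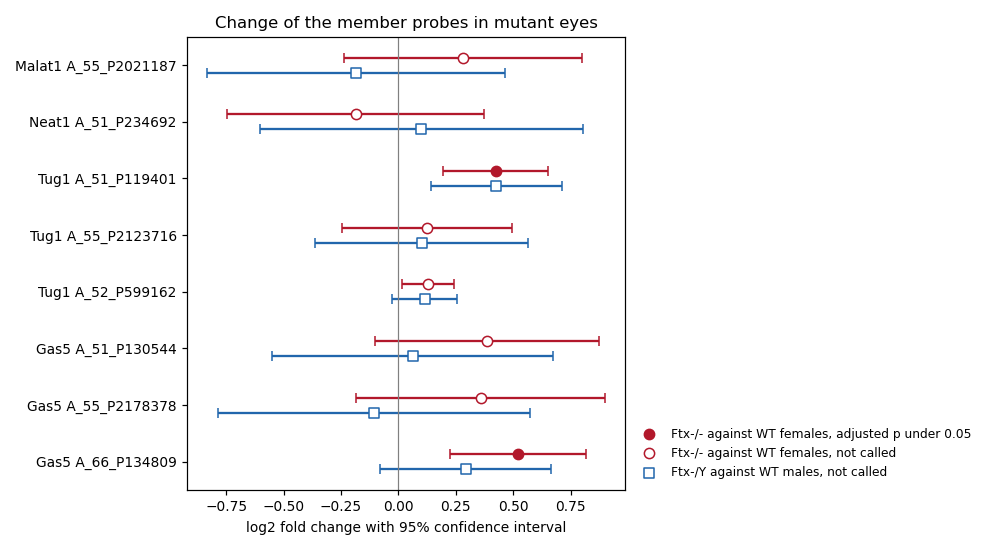
Log2 fold change with its 95% interval (horizontal axis) of each member probe (vertical axis), for Ftx-/- against WT females and Ftx-/Y against WT males, filled where the limma adjusted p was under 0.05. The filled points are Tug1 A_51_P119401 at 0.42 and Gas5 A_66_P134809 at 0.52 in females, and every male interval but that of Tug1 A_51_P119401 spans 0.

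No member probe was called when the male change was subtracted from the female one, where limma called 0 of 14056 probes and 1951 had an unadjusted p under 0.05. Between WT females and WT males, all 6 of these eyes being on slide 1, 0 member probes were called, against 0.0640% of tested probes. In 3 member probes, Tug1 A_51_P119401, Tug1 A_55_P2123716 and Gas5 A_51_P130544, every WT female eye lay below every WT male eye, as in 9.09% of tested probes, with log2 differences of -0.16, -0.30 and -0.46. Ftx-/- females set against Ftx-/Y males gave 0 member calls, against 1.98% of tested probes.

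The called probes moved with the slide. For Tug1 A_51_P119401, the Ftx-/- eyes averaged 1547 ± 50.1 (SD, n = 3) on slide 2, 1182 ± 84.8 (n = 4) on slide 3 and 1298 ± 133 (n = 4) on slide 4, which is 0.66, 0.27 and 0.40 above WT females on the log2 scale. For Gas5 A_66_P134809 the order was another, with 13849 ± 271 (n = 3) on slide 2, 20644 ± 1150 (n = 4) on slide 3 and 15705 ± 681 (n = 4) on slide 4, or 0.24, 0.82 and 0.42 above WT females. Within slide 1, the only Ftx-/Y eye beside the WT males stood 0.22 above them for Tug1 A_51_P119401 and 0.37 for Gas5 A_66_P134809, and Ftx-/Y eyes 2 and 3 on slide 2 stood 0.53 and 0.25 above them. Within slide 2, Ftx-/- females and Ftx-/Y males differed by -0.03 and 0.00 in these 2 probes, and by 0.56 in Malat1. With slide as a fixed term, which in females then rests on these Ftx-/Y eyes, the female differences were 0.35 for Tug1 A_51_P119401 and 0.36 for Gas5 A_66_P134809, with limma adjusted p of 0.279 and 0.321. With slide as a random block they were 0.38 and 0.49, with limma adjusted p of 0.0368 and 0.0321. Over all alternatives run, the adjusted p of the female difference ranged from 0.00238 to 0.841 for Tug1 A_51_P119401 and from 0.00163 to 0.342 for Gas5 A_66_P134809.

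For most members, the difference between the 2 arrays of an eye was below the spread between eyes, but these arrays share a slide, so error between slides is not in it. The 10 copies of Tug1 A_51_P119401 on one array varied by 1.33% to 7.15% (coefficient of variation, median 4.28%), and 9 of 310 such spots were left out as uneven or apart from their copies. The median difference between the 2 arrays of an Ftx-/- eye was 0.040 on the log2 scale for this probe, against an SD of 0.19 between eyes, and 0.066 against 0.45 for Malat1. For Tug1 A_52_P599162 the order was turned, with 0.097 between arrays and 0.060 between eyes.

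Within the 11 Ftx-/- eyes, several member probes went up and down together. The permutations did not keep eyes within slides, so their p-values also hold differences between slides. Over 28 pairs of member probes, Malat1 followed the Gas5 probe A_51_P130544 with Pearson's r = 0.939 (two-sided permutation test, adjusted p = 0.00028) and Spearman's rho = 0.891 (permutation, adjusted p = 0.00286). Without the 2 eyes farthest from the median r was 0.867, and it was 0.898 after each slide was centred. The Gas5 probes A_51_P130544 and A_55_P2178378 followed each other most closely, at r = 0.988 (permutation, adjusted p = 0.00028) and rho = 0.964 (permutation, adjusted p = 0.00084), with 0.976 without the 2 farthest eyes and 0.994 after centring. The remaining Gas5 probe, A_66_P134809, did not follow them, with r of -0.605 and -0.498 (permutation, adjusted p = 0.11 and 0.172), which turned to 0.389 and 0.411 after centring on slides. Neat1 and Malat1 gave r = 0.765 (permutation, adjusted p = 0.012) and rho = 0.927 (permutation, adjusted p = 0.00103), with 0.798 without the 2 farthest eyes and 0.678 after centring. Tug1 A_51_P119401 and Malat1 gave r = 0.824 (permutation, adjusted p = 0.00191) and rho = 0.873 (permutation, adjusted p = 0.0032), with 0.778 and 0.775. The other Tug1 probes did not follow, and none of their relations below passed the threshold. A_51_P119401 gave r = -0.653 (permutation, adjusted p = 0.0796) with A_52_P599162 and -0.149 (permutation, adjusted p = 0.682) with A_55_P2123716, which were -0.793 and -0.769 after centring. Malat1 gave r = -0.536 (permutation, adjusted p = 0.145) and -0.338 (permutation, adjusted p = 0.368) with these probes, or -0.678 and -0.667 after centring. Tug1 A_51_P119401 and Gas5 A_66_P134809, the called probes, gave r = -0.743 (permutation, adjusted p = 0.0273) and rho = -0.682 (permutation, adjusted p = 0.0664), with -0.617 without the 2 farthest eyes and 0.178 after centring, so this relation did not hold within slides. Ftx-/- eye 3 was highest and eye 7 lowest for Malat1 and for both of these Gas5 probes. No slide holds 6 Ftx-/- eyes, so no r within a slide is given, and values of one array share its RNA, labelling and normalization. The median signal of an eye's arrays went with Gas5 A_66_P134809 at r = 0.879 (permutation, adjusted p = 0.0568 over 80 relations) and rho = 0.691 (permutation, adjusted p = 0.584), with 0.742 without the 2 farthest eyes and 0.427 after centring on slides. For the other members r with array brightness lay between -0.440 and -0.177 (permutation, adjusted p of 0.8 and above). After centring on slides it was 0.852 for Tug1 A_51_P119401, 0.75 for Malat1, 0.549 for Neat1, and 0.577 and 0.564 for Gas5 A_51_P130544 and A_55_P2178378. It was -0.729 for Tug1 A_55_P2123716 and -0.871 for Tug1 A_52_P599162. Within slides the members that went together thus also went with array brightness, and its part in these relations and in the female differences was not tested.

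**Figure D4:**
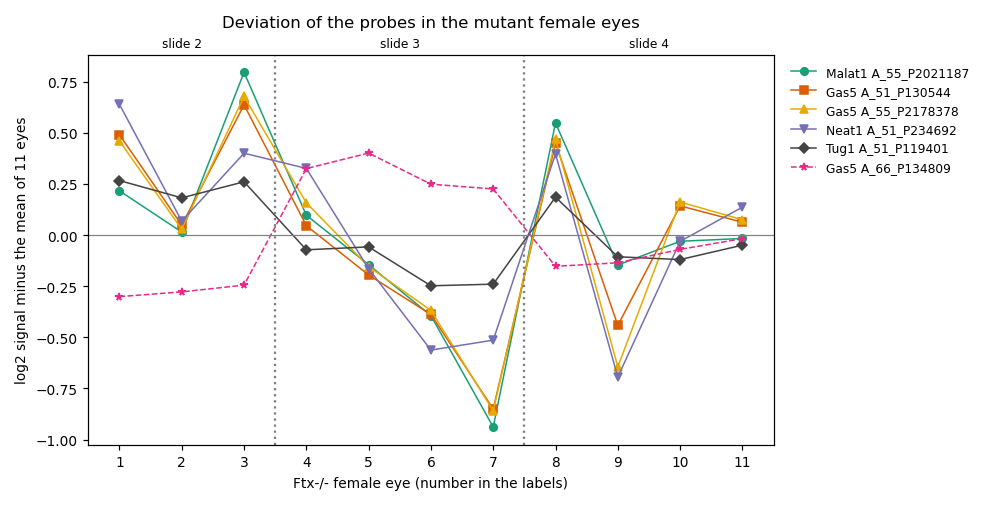
Deviation of the log2 signal from the mean of the 11 Ftx-/- eyes (vertical axis) for 6 member probes in each Ftx-/- eye (horizontal axis), with slides 2, 3 and 4 set apart, where lines only join points of one probe. Malat1 and the Gas5 probes A_51_P130544 and A_55_P2178378 are highest in eye 3 and lowest in eye 7, while Gas5 A_66_P134809 is high in eyes 4 to 7 of slide 3.

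Over all 20 eyes, the named genes whose probes were most like 1 probe of each member gene, the one with the highest signal, by Pearson's r among 11654 tested probes of other named genes, were the following, given as a description. Malat1 was most like Zfp692 (0.90), Hnrnpa2b1 (0.88) and Cklf (0.87). Neat1 was most like Ppp1r12c (0.81), Fam122a (0.80) and Adck5 (0.78). For Tug1 A_52_P599162, Zmiz2 (0.78) and Mycn (0.78) were among those most like it, and Gas5 A_66_P134809 was most like Gm13351 (0.96), Gm13229 (0.96) and BC048507 (0.95).

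The partners of these RNAs were read from gene lists, each beside the 35.1% of the tested probes called in females. Of 32 tested probes for paraspeckle proteins, 9 were higher and 2 lower, with a median of 0.06. Hnrnpk, an RNA-binding protein that takes part in forming the long Neat1 RNA, was higher by 0.52 (probe A_65_P08022), Hnrnpa1 by 0.44 and Tardbp by 0.42, while Taf15 was lower at -0.66. Taf15, an RNA-binding protein, was the one probe of these lists also called in males, at -1.13 (limma adjusted p = 0.0365). Of 41 probes for nuclear speckle proteins, 14 were higher and 7 lower, with a median of 0.06. The splicing kinases Clk1 and Clk4 were higher by 0.76 and 0.70, whereas Thrap3 and the speckle core protein Srrm2 were lower at -0.75 and -0.69. For Srsf2, a splicing factor that marks speckles, A_52_P8043 was higher by 0.41 and A_55_P2030486 lower at -0.57, so probes of one gene disagreed.

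Of 9 probes for proteins that bind Miat, Rmst or Tug1, 2 were higher and 2 lower, with values from -0.63 to 0.37 over the 9. Sox2, the partner of Rmst, was higher by 0.37 and Suz12, a subunit of the Polycomb complex, by 0.28, while Pum2, an RNA-binding repressor of translation, was lower at -0.36. Of 7 other snoRNA host genes, 2 were higher and 0 lower, Snhg3 by 0.33 (limma adjusted p = 0.00384) and Snhg10 by 0.24 (limma adjusted p = 0.0182, in 10 of 11 eyes), and all 7 gave positive values with a median of 0.24 in females and 0.02 in males. Of 8 factors of nonsense-mediated decay, Upf2 was higher by 0.28, and Upf3a (-0.50), Smg5 (-0.26) and the helicase Upf1 (-0.23) were lower. Of 9 probes for the glucocorticoid receptor and its targets, 3 were higher, of which Errfi1 by 0.40 moved the same way in every Ftx-/- eye. Of 17 probes for other long noncoding RNAs, 0 were higher and 5 lower, with a median of -0.25, among them 2900097C17Rik (-0.89), Xist (-0.63 for probe A_52_P300376, beside -0.25 for A_52_P113537, limma adjusted p = 0.221), Peg13 (-0.46) and H19 (-0.46, probe A_30_P01026972). Of 5 immediate early genes, which handling of tissue can induce, Btg2 was higher by 0.33 and Jund lower at -0.40. In males 0 probes of these lists were called other than that of Taf15.

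Marker lists of cell types in the eye differed in how many probes were called in females, where 35.1% of all tested probes were. Of 15 probes for lens markers, 13 were lower and 0 higher in Ftx-/- females, with a median of -0.70, and their summed signal was 1302650 to 1413740 in WT females, 936575 to 1286640 in Ftx-/- females and 1243330 to 1352140 in Ftx-/Y males. Of 13 probes for retinal neuron markers, 6 were lower and 2 higher, with a median of -0.31, while of 12 for retinal progenitors 2 were higher and 0 lower, with a median of 0.01. The share called was 86.7% for lens and 61.5% for retinal neurons, above that of all tested probes, but 16.7% for progenitors, below it. Of the endothelial probes tested, 1 of 4 (25%) was called, lower. Called higher were 1 of 5 macrophage (20%), 3 of 9 erythroid (33.3%), 1 of 4 pigment epithelium (25%) and the 1 periocular mesenchyme probe tested. Shares of so few probes hang on 1 call. The summed signal of pigment epithelium markers was 6780 to 9919 in WT females and 4429 to 43825 in Ftx-/- females, while the WT males, at 10886 to 16105, were all above the WT females. That of periocular mesenchyme markers was 3944 to 5665 in WT females and 5917 to 46299 in Ftx-/- females. In males 0 marker probes were called, yet 8 of 9 erythroid probes had an unadjusted p under 0.05, with a median of 0.91 and a summed signal of 707315 to 1173700 in Ftx-/Y against 525639 to 635452 in WT males. The summed signal of progenitor markers was 398882 to 486296 in Ftx-/Y and 382578 to 395443 in WT males, and the median of the pigment epithelium probes was -0.81. Within the 11 Ftx-/- eyes, no relation of a member to the summed signal of a marker list passed the threshold over the 80 relations. The strongest, of progenitor markers with Gas5 A_66_P134809, gave r = -0.81 (permutation, adjusted p = 0.13) and rho = -0.864 (permutation, adjusted p = 0.1), with -0.834 without the 2 farthest eyes and -0.57 after centring on slides. Progenitor markers gave r = 0.747 (permutation, adjusted p = 0.218) and rho = 0.5 (permutation, adjusted p = 0.781) with Tug1 A_51_P119401, with 0.697 and 0.209. The part of cell makeup in the members' differences between groups, that of Tug1 A_51_P119401 in males included, was not tested. Of the 26 probes on the strand opposite to the members, 4 were called in females and 0 in males, where 0.104% of all probes were called. In females 35.1% of tested probes and 15.8% of all probes were called, so this count is near the background. A_30_P01031405, opposite Malat1 at -0.37, was called among the tested probes. The others were called in the fit over all probes. They were A_30_P01033068 opposite Malat1 at -0.76, A_30_P01021879 opposite Neat1 at -1.06 and A_30_P01025128 opposite Gas5. The last was not well above background on any WT array. Of the 4, none stayed called with slide as a fixed term (limma adjusted p of 0.529 to 0.829), and A_30_P01021879 turned to 0.46. A_30_P01020769, which shares 43 bases with that probe, gave 0.14 in females (limma adjusted p = 0.399).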

How the data were processed

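Eyes of E13.5 embryos were measured on 31 one-colour Agilent arrays. The authors scanned them and deposited Feature Extraction 11.0.1.1 output, with spot intensities per the file headers, and a series table that holds the same signals without normalization. Here spots flagged as uneven or as apart from their copies were left out (5751 over all arrays), each array was normalized by qspline, the method named in the study's methods (rewritten in R 4.3.3, 100 samples, 5 iterations, offset of at least 5), and log2 intensities from the deposited signals were averaged over copies and over the arrays of an eye. Groups were taken from the labels. Probes with a mean above 500 in WT females (14056) were tested with limma 3.58.1 (moderated test with trend, one fit over 20 eyes, two-sided, Benjamini-Hochberg over all tested probes), and a probe was called at an adjusted p under 0.05. The code was tested on simulated data. Permutation tests of the relations drew 100000 orders of the Ftx-/- eyes without regard to slide. The number of arrays, of slides (4) and of eyes limits the precision.

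The members and gene lists were chosen with earlier results of these data known. Every member probe is reported, and of each list at most 4 genes, those with the largest change among called probes that moved one way in every mutant eye. Snhg10, Srsf2, the opposite-strand probes and the probes under other names were added after their values were seen. Alternatives were other normalizations, signal minimums, call rules, tests, slide and scan terms, the replicate block and leaving out eyes. Leaving out the Ftx-/- eyes of 1 slide was chosen after seeing the data. One gene that the rule for likeness would name is not reported here.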

Additional observations from a re-analysis of the deposited data

Results flagged for a closer look

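The probe A_30_P01026422, on the Gas5 strand and named by position only, stood out because all 11 Ftx-/- eyes lay above the WT female mean and all 3 Ftx-/Y eyes below the WT male mean. Its female change exceeded its male change by 0.82 on the log2 scale, with a limma p of 0.0192 unadjusted and 0.404 adjusted. The difference thus does not pass after correction, and 9.98% of all probes had an unadjusted p under 0.05 in this comparison. The probe was picked by this pattern from all probes read at the members' loci, so its p comes from the values that picked it. How many probes of the array show the pattern was not counted. The female change was 0.64 (SE 0.46, limma adjusted p = 0.698) with slide as a fixed term and no longer called. The signals were 106 ± 13.2 (SD, n = 3) in WT females, 172 ± 41.0 (n = 11) in Ftx-/- females, 135 ± 22.5 (n = 3) in WT males and 120 ± 8.48 (n = 3) in Ftx-/Y males. No group of 4 to 10 eyes exists in the design, so single outlying eyes were not tested.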

How the results depend on the processing

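Both female calls, Tug1 A_51_P119401 and Gas5 A_66_P134809, kept their direction in all 29 alternatives run. With slide as a fixed term, scan as a fixed term or the replicate block, 0 member probes were called in females, where limma then called 11, 11 and 0 of 14056 probes. Their log2 changes were 0.35 and 0.36 with the slide term, 0.12 and 0.64 with the scan term (limma adjusted p of 0.841 and 0.342), and 0.55 and 0.43 with the replicate block (0.112 and 0.181). The replicate numbers share only a number, since eyes of one number did not consistently deviate together (correlations from -0.216 to 0.139 in females and -0.163 to -0.0258 in males, -0.226 and 0.214 between the WT sexes, and -0.595, 0.116 and 0.298 between the mutant sexes), and the replicate block changed the call of no other member probe. Leaving out each eye of the groups of 3 in turn gave 2 to 2 female calls and 0 to 0 in the other comparisons. Without WT female eye 1, Tug1 A_51_P119401 was no longer called and Tug1 A_52_P599162 was, at 0.18 (limma adjusted p = 0.0379). The latter was also called under the 75th percentile (0.16) and without the Ftx-/- eyes of slide 2 (0.15), as was Gas5 A_51_P130544 without those of slide 3 (0.58) and by the methods' t-test with the fold rule (3275 probes called, and 3444 after Benjamini-Hochberg). In the deposited signals the called probes stood at 0.69 and 0.81, or 0.44 and 0.56 above the median of all tested probes, with 2744 probes called, and with slide as a random block 2461 were. With the study's fold and unadjusted p rule 1 member probe, Tug1 A_51_P119401, was called in males, and 788 probes in all. The member probes below the minimum numbered 1, and 0 with a minimum of 100 or with the background filter. Small uncalled values changed sign: Neat1 in males at -0.12 (75th percentile), -0.23 (deposited signals), -0.42 (slide term), -0.42 (scan term), -0.047 (random block), -0.11 (without WT male 1) and -0.033 and -0.030 without Ftx-/Y 2 or 3, the range over left-out eyes being -0.11 to 0.37; Neat1 in females at 0.16 (replicate block); Gas5 A_51_P130544 in males at -0.010 (deposited signals), -0.13 (slide term), -0.13 (scan term), -0.11 (random block), -0.04 (without WT male 1) and -0.12 (without Ftx-/Y 3); Gas5 A_55_P2178378 at 0.066 in males (without Ftx-/Y 1, range -0.25 to 0.066 over left-out eyes) and -0.16 in females (scan term); Malat1 in females at -0.024 (scan term); and Tug1 A_52_P599162 in females at -0.015 (slide term). The cause of these changes was not tested. Of the alternatives for single probes 432 gave the same call and direction. The t-test was not run for the female minus the male change.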
